A study of Enchytraeus crypticus with 9 samples.

Results

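The transcripts described here were chosen by their mean levels in cocoons of Enchytraeus crypticus, a small white soil worm used in toxicity tests: the mean at 5 mg Cd/kg had to lie above the mean of unexposed cocoons, and the mean at 16 mg Cd/kg above that at 5 mg Cd/kg. A level is log2 of an array spot's processed signal minus the 75th percentile of that array, so that 1 unit is a doubling and 0 is the brightness of the 75th percentile probe. Eligible probes exceeded background clearly on each of the 9 arrays (16952 of 43750) and were not among the 200 with the highest control mean, which left 16752. Members needed a first step (mean 5 mg minus mean control) and a second step (mean 16 mg minus mean 5 mg) that were both above 0.5. This held for 139 eligible probes (0.83%), and the 100 with the largest smaller step are the members. Scaling decided how many probes qualified: 82 did after quantile normalization, and 12 after model-based (normexp) background correction with quantile normalization, which kept 10 of the 100 members above 0.5 on both steps. Scaling on the spike-in controls gave 168 probes, of which 39 were among the 139. Normexp added an offset of 50 to each signal, which makes log2 differences smaller. How far this lowered the count was not tested. Both steps stayed above 0 in 99 members with normexp, and in all 100 with quantile normalization or spike-in scaling. The files do not pair the probe identifiers with gene names and hold no probe sequence, so members are given by identifier and by their values alone.

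The study compared 3 groups of whole cocoons that were 1 to 2 days past laying. Control cocoons spent 1 day in LUFA 2.2 soil, a natural standard soil, with no added cadmium. The 2 treated groups were kept in the same soil spiked with 5 mg Cd/kg or with 16 mg Cd/kg, doses that, per the submitters, affect how the embryos develop. A group comprised 3 biological replicates, every one a pool of 300 cocoons hybridised to its own 1-colour array. RNA of a pool mixes the tissues of whole cocoons, so fewer cells of a type and less RNA per cell cannot be told apart.

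Cadmium has no known nutritional role in animals, binds to the thiol groups of proteins and displaces zinc. Cells of many animals answer it by making metal-binding, cysteine-rich proteins such as metallothioneins, heat shock proteins that refold damaged proteins, and enzymes of glutathione metabolism. In the related worm Enchytraeus buchholzi a cysteine-rich protein gene is known to be induced by the metal. Whether any member belongs to these families was not tested.

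The arrays differed in ways that touch the members. The 75th percentile of the processed signal ran from 74.4 to 78.1 on the control arrays, from 38.3 to 84.9 on the 5 mg arrays and from 48.9 to 87.3 on the 16 mg arrays. There were 3 slides by the file headers, with 5 mg array 1 alone on the third. On slide 1 were 16 mg array 1, 5 mg array 2 and the control arrays 1 and 3. The remaining arrays, namely 16 mg arrays 2 and 3, 5 mg array 3 and control array 2, were on slide 2. The headers also gave 5 scan sessions. Control arrays 1 and 2 and 5 mg array 1 were each alone in a session. Control array 3, 5 mg array 2 and 16 mg array 1 shared a session. The 5 mg array 3 and 16 mg arrays 2 and 3 shared another. With a scan session term, an array alone in its session adds nothing to the steps, so only control array 3 counts as a control. With a slide term, 5 mg array 1, alone on the third slide, likewise adds nothing to the steps. Among all eligible probes the median SD between arrays was 0.18 for controls, 0.63 for 5 mg and 0.35 for 16 mg. The number of arrays, 3 per group, and this spread limit the precision.

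In size, the steps of most members were modest. The first step had a median of 0.71 on the log2 scale (range 0.54 to 2.27), a ratio of 1.63 between the group means. The second step had a median of 0.68 (range 0.55 to 2.35), a ratio of 1.61. Together they put the 16 mg mean a median of 1.48 above the control mean (range 1.11 to 3.90), a ratio of 2.80. Over the eligible probes the median of the first step was 0.21, of the second step -0.03 and of the 16 mg minus control difference 0.26. These differences chose the members, so they describe them and are no test. Only 6 members had both steps above 0.8, and only 1 had both above 1.

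Steps in opposite directions were far more frequent than 2 steps in the same direction. A first step above 0.5 was followed by a second step below -0.5 in 1992 eligible probes, and by a second step between -0.5 and 0.5 in 4838. A first step below -0.5 followed by a second step above 0.5 was seen in 1424. The mirror of the rule, with both steps below -0.5, found 132 probes, close in number to the 139 with both above 0.5. Both steps use the mean of the 5 mg arrays with opposite sign, so an error in that mean moves them apart.

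**Figure D1:**
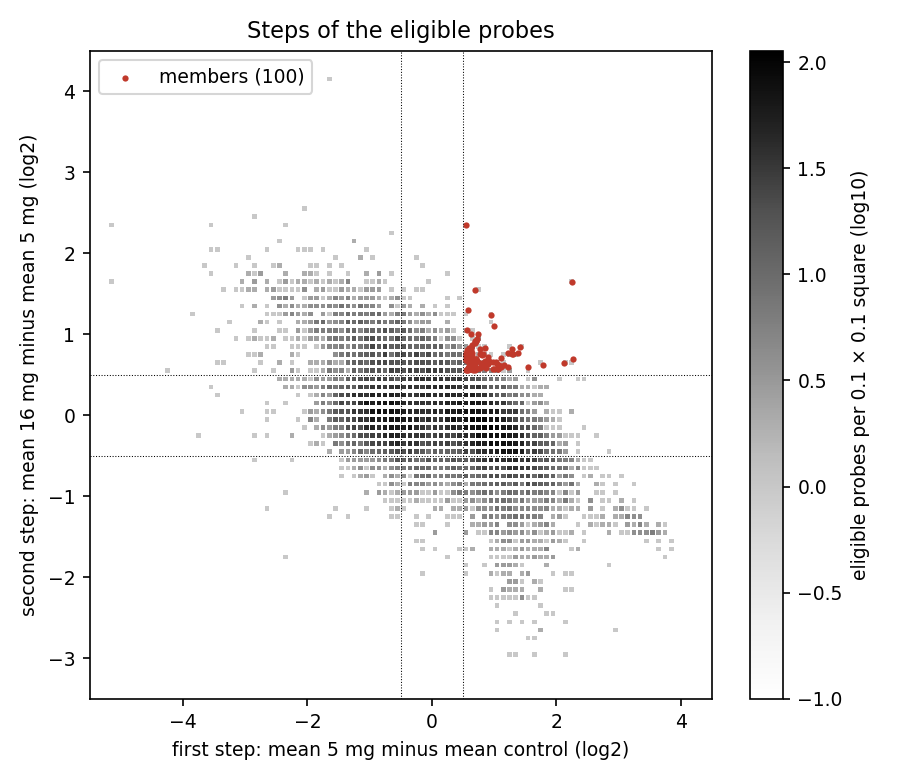
Second step against first step for all 16752 eligible probes, shaded by the number of probes in each square of the plot (log10 scale), with the 100 members in red and dotted lines at steps of 0.5 and -0.5. The members form a sparse corner beside a cloud that runs from high first steps with low second steps to the reverse.

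Members spanned a wide range of brightness. Their control means ran from -2.18 to 6.35 with a median of 0.89, against 0.66 for the eligible probes, and 73 of 100 lay above 0, compared with 61.6% of the eligible probes. By identifier, 34 members were contigs (assembled sequences) and 66 had identifiers of the kind given to single reads. The share of contigs was thus 34.0% among members, 51.4% among eligible probes and 75.8% among the 132 probes with both steps down. Among the 813 eligible probes with only the second step above 0.5 and the first within 0.5 of 0, it was 29.3%, so a low share of contigs was not particular to the members. Identifier type played no part in the rule, and the difference is a description, since probes that report 1 transcript are not independent. No member had a spot marked as non-uniform or outlying.

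Some members had nearly parallel levels. After each member was centred on its own mean, 9 of the 4950 pairs differed by less than 0.25 on every one of the 9 arrays. These pairs joined 15 members into 6 sets, the largest of which held 4 read-named probes. For example, GYUW2K401AW1ER stood at 1.95, 1.74 and 1.36 in control pools, 2.21, 2.93 and 4.17 in 5 mg pools and 4.39, 4.96 and 2.51 in 16 mg pools. GYUW2K402FNJG5 stood at 1.98, 1.84 and 1.36 in control pools, 2.23, 2.94 and 4.20 in 5 mg pools and 4.34, 5.03 and 2.30 in 16 mg pools. In both probes of this pair, picked after their values were seen, 16 mg array 3 lay below 5 mg array 3. Whether such probes report the same transcript was not tested, and the number of distinct transcripts among the 100 is not known.

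The label of a stepwise rise holds for group means, but array by array it held for few members. In only 2 of 100, all controls lay below all 5 mg arrays and all 5 mg arrays below all 16 mg arrays (and in 0.149% of the eligible probes). Every 16 mg array lay above every 5 mg array in 7 members (and in 1.73% of the eligible probes). Every 5 mg array lay above every control in 14 members (and in 31.6% of the eligible probes). Every 16 mg array lay above every control in 84 members (and in 38.4% of the eligible probes). The rule used all of these contrasts, so nothing is read from these counts beyond the order of the arrays. Leaving out 1 array moved them: the 14 became 59 without 5 mg array 1 (39.3% of the eligible probes) and 51 without 5 mg array 2 (42.4%), and the 7 became 36 without 5 mg array 3 (4.63%) and 26 without 16 mg array 3 (4.61%). The number in full order was at most 7 whichever array was left out (0.149% to 1.01% of the eligible probes).

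The 2 members in full order were named after their values were seen. GYUW2K401D2D5R had levels of -0.58, -0.20 and -0.47 in control pools, 0.15, 0.08 and 0.33 in 5 mg pools and 0.81, 0.65 and 0.93 in 16 mg pools. The groups did not overlap, and the SD between its 5 mg arrays, 0.13, was the smallest of any member. Probe contig22639 had levels of 1.42, 1.80 and 1.35 in control pools, 2.30, 1.93 and 2.24 in 5 mg pools and 2.90, 2.70 and 2.58 in 16 mg pools. Its highest control array and its lowest 5 mg array lay on different slides. They were only about as far apart as the error that the scanner software gives for a single spot. Their first steps were 0.61 and 0.63 and their second steps 0.61 and 0.57.

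In most members the 5 mg mean averaged arrays that did not lie between the other groups. All 3 arrays at 5 mg Cd/kg fell between the control and 16 mg means in 9 of 100 members (1.32% of the eligible probes). In 76 members exactly 1 of the 3 lay below the control mean (21.5% of the eligible probes). In 54 exactly 1 lay above the 16 mg mean (36.9%), with 18 further members in which 2 did (38.7%). The median SD of a member was 0.29 for controls, 1.21 for 5 mg and 0.51 for 16 mg. For 78 members the SD at 5 mg Cd/kg was larger than the first step (62.4% of the eligible probes). For 24 it was larger than the whole difference between 16 mg Cd/kg and control (67.7%). These shares of eligible probes include those whose difference was below 0, which any SD exceeds. The error that the scanner software gives for a single spot came to a median of 0.14 on the same scale, and it leaves out any difference between pools. Its minimum and lower quartile were both 0.1443, among members and among eligible probes. For most members it thus sat at or near a fixed lowest value and says little about a given spot.

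Members fell into 2 patterns by which 5 mg array was lowest, a division made after the values were seen. The first of the 5 mg arrays was lowest in 48 members and the second in 52, while the third was lowest in none. Over the eligible probes these shares were 26.2%, 38.3% and 35.5%. Relative to the control mean of each member, 5 mg array 3 had a median of 1.69 and a lowest value of 0.50, array 2 a median of 0.47 and array 1 a median of 0.43.

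Where 5 mg array 1 was lowest, its median stood 0.71 below the control mean (-0.71), while arrays 2 and 3 stood at 1.23 and 1.83. Their 16 mg arrays had medians of 1.69, 2.02 and 0.80 above the control mean. Array 1 lay below the control mean in 43 of these 48 members. It did so in 39.1% of the eligible probes, whichever 5 mg array was lowest. The other 5 mg arrays were above all controls in 47 of the 48. The rule and the division by lowest array favour such counts, so they only describe the members. Read-named probes made up 37 of the 48.

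Where 5 mg array 2 was lowest, its median stood at -0.32, while arrays 1 and 3 stood at 1.38 and 1.51. Their 16 mg arrays had medians of 1.36, 1.49 and 1.5, so that the brighter 5 mg arrays reached the level of the 16 mg arrays. Array 2 lay below the control mean in 34 of these 52 members. It did so in 41.8% of the eligible probes, whichever 5 mg array was lowest. The other 5 mg arrays were above all controls in 49 of the 52. These counts too are favoured by the rule and the division. Read-named probes made up 29 of the 52. By these medians, the intermediate mean at 5 mg Cd/kg averaged 1 array below the control mean with 2 arrays near the 16 mg level. The 5 mg arrays lay on 3 different slides, so slide and cocoon pool cannot be told apart in the differences between them.

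**Figure D2:**
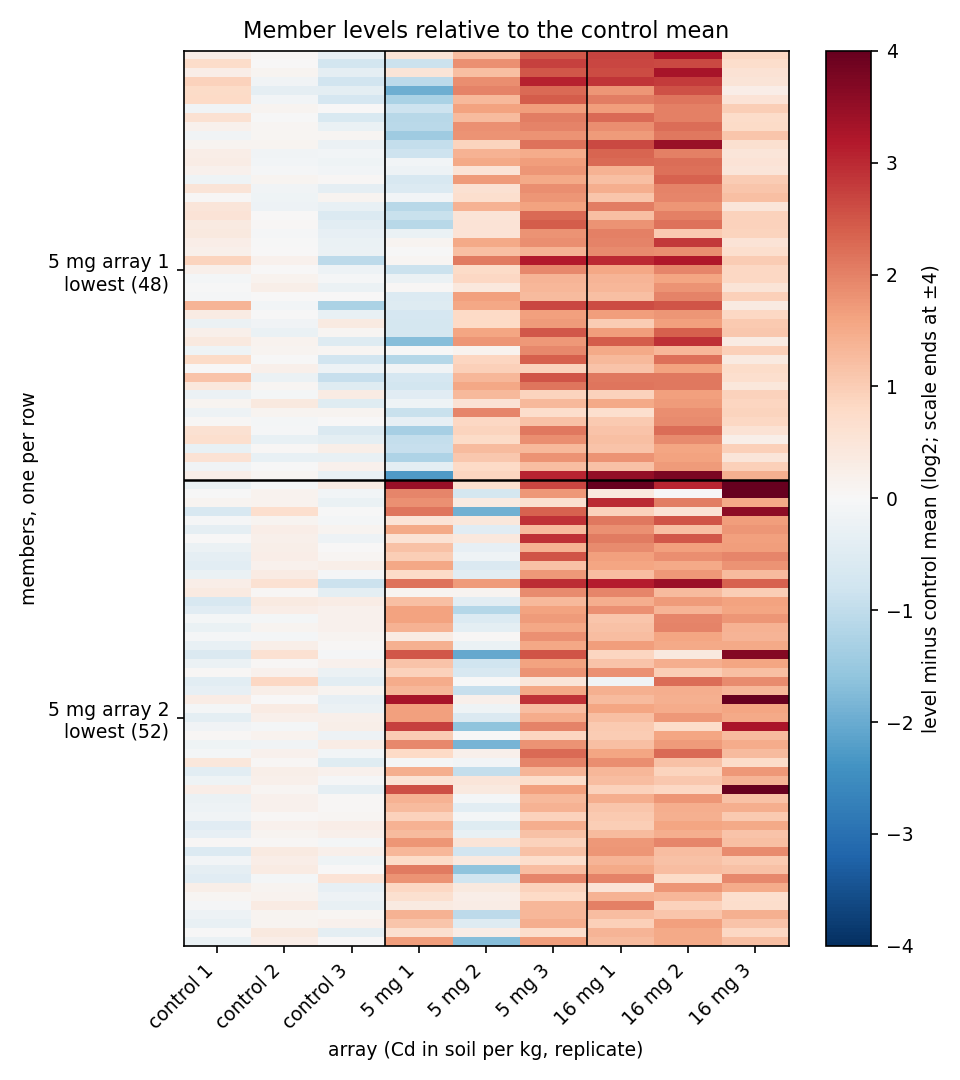
Level of each of the 100 members (rows) on each of the 9 arrays (columns, by dose and replicate) minus the member's control mean, on the log2 scale, red above and blue below. The rows are divided into the 48 members with 5 mg array 1 lowest and the 52 with 5 mg array 2 lowest, and in each block that array is near or below control while the other 5 mg arrays resemble the 16 mg arrays.

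Single members showed how different the arrays behind a pair of steps could be. Probe contig01277 had the largest smaller step, and also the largest difference between 16 mg Cd/kg and control. Its levels were -0.83, -0.64 and -0.23 in control pools, 2.90, 0.08 and 2.10 in 5 mg pools and 3.45, 2.47 and 4.08 in 16 mg pools. Both treated groups lay above all controls, but 5 mg array 1 exceeded 16 mg array 2. Its first step was 2.26 (SE 0.66) and its second 1.64, and the 16 mg mean lay 3.90 above the control mean, a ratio of 14.9. It kept 2 positive steps when any 1 array was left out, with first steps of 1.66 to 3.07 and second steps of 0.84 (without 5 mg array 2) to 2.24. Its first step was 1.25 with normexp and quantile normalization. With a scan session term, where only control array 3 counted as a control, it was 0.94.

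Probe contig02849 had the largest first step, 2.27 (SE 0.48). It had levels of 2.58, 2.93 and 1.49 in control pools, 4.5, 4.04 and 5.28 in 5 mg pools and 5.49, 5.74 and 4.69 in 16 mg pools. Here too the treated arrays all lay above the controls, and the 2 treated groups overlapped. The second step of 0.70 was close to the SD within either treated group, 0.55 among the 16 mg arrays and 0.62 among the 5 mg arrays. It ran from 0.42 (without 5 mg array 2) to 1.04 (without 5 mg array 3) as arrays were left out, and was 0.21 with array weights.

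In 2 other members single arrays decided a step. For contig00399, second by the smaller step, the levels were -0.86, -0.70 and -0.97 in control pools, 1.12, -1.55 and 0.90 in 5 mg pools and -0.42, -0.85 and 5.07 in 16 mg pools. Without 16 mg array 3, its second step of 1.11 turned to -0.79. For GYUW2K401AGGGW, which had the largest second step, the levels were 3.08, 2.94 and 2.55 in control pools, 0.58, 3.71 and 5.90 in 5 mg pools and 6.37, 6.62 and 4.27 in 16 mg pools. Its first step of 0.54 became 1.95 without 5 mg array 1 and -0.71 without 5 mg array 3, so the order of control and 5 mg rested on which pools were averaged.

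**Figure D3:**
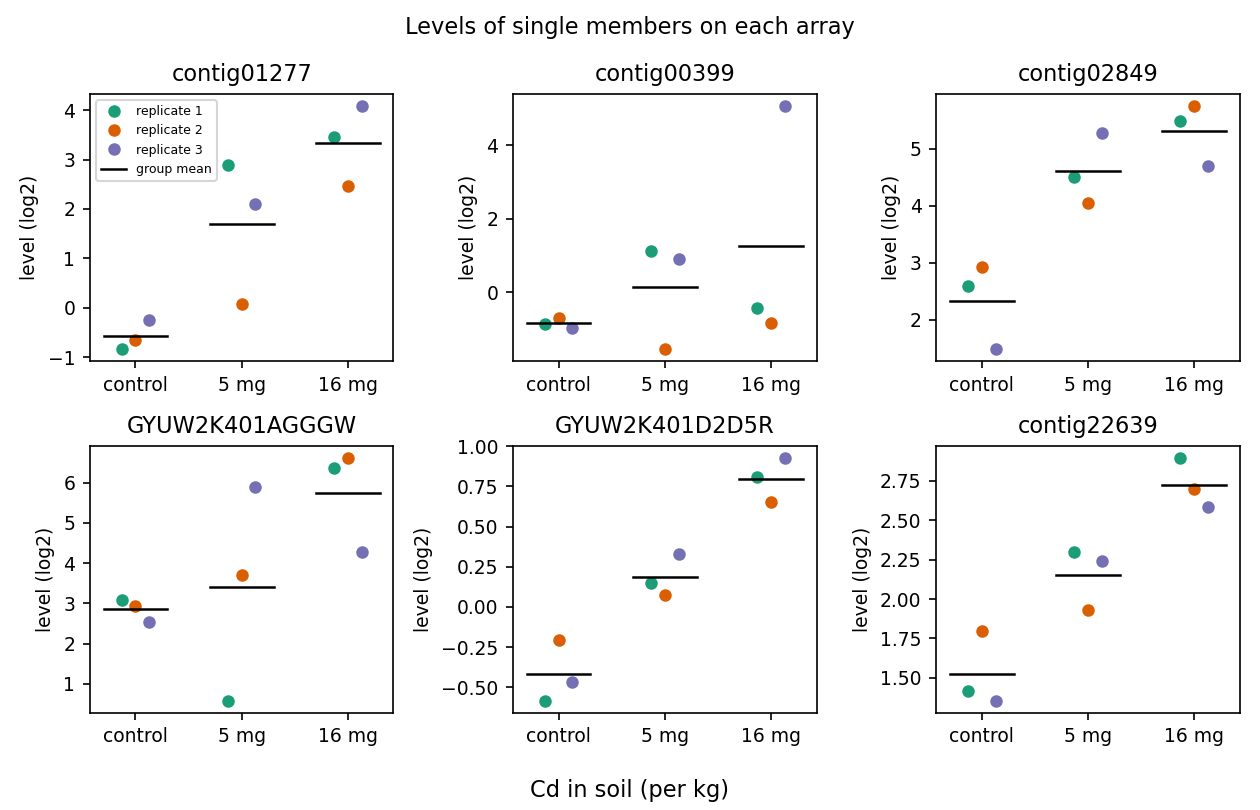
Levels (log2) of 6 members on each array, by cadmium in soil (per kg), with 1 point per array coloured by replicate number and a bar at each group mean. The members GYUW2K401D2D5R and contig22639 show 3 separate groups, whereas in contig00399 a single 16 mg array at 5.07 and in GYUW2K401AGGGW a single 5 mg array at 0.58 stand far from the rest.

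GYUW2K401AGGGW was also the last member inside the limit of 100, with a smaller step of 0.543. The first probe outside it, contig10601, had steps of 0.61 and 0.54. Its levels were 3.85, 4.52 and 4.39 in control pools, 6.72, 2.43 and 5.44 in 5 mg pools and 5.72, 5.37 and 5.13 in 16 mg pools, so the probes on either side of the limit shared the scatter at 5 mg Cd/kg.

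For background, limma was fitted to all 25915 probes that were well above background on every array of at least 1 group, with adjusted p-values over all of them. At 5 mg Cd/kg against control, 2 members were called higher, contig02849 (limma adjusted p = 0.0274) and contig01277 (limma adjusted p = 0.0464), where 8.94% of all tested probes were called higher. With the 5 mg and control arrays alone the counts were 1 member, 3.11% of the tested probes and 4.44% of the eligible ones. At 16 mg against 5 mg Cd/kg no member was called (0 of 100, 0% of tested probes called higher, and the same with those groups alone). The smallest adjusted p of a member in that contrast was 0.791 in limma, and 1426 of all tested probes had an unadjusted p under 0.05. At 16 mg Cd/kg against control 0 members were called in the fit to all arrays (0% of tested probes, smallest adjusted p of a member 0.112, with 7274 tested probes at an unadjusted p under 0.05). With the 16 mg and control arrays alone, 92 of 100 members were called higher, where 20.2% of tested probes and 27.6% of the eligible ones were. The fit to all arrays pooled the variance of a probe over the 3 groups, so the spread at 5 mg Cd/kg entered each contrast. The background moved with the scaling: at 5 mg Cd/kg against control, 0.76% of tested probes were called higher with spike-in scaling and 2.59% with the percentile taken over probes detected on all arrays, when most calls were lower. Without 5 mg array 1 the fit called 34 members higher at 5 mg Cd/kg against control (13.7% of tested probes) and 62 at 16 mg Cd/kg against control (8.01% of tested probes). Without 5 mg array 2 it called 34 (19.2% of tested probes) and 0, the latter with no tested probe called. Without 5 mg array 3, or without any 1 of the control arrays, no tested probe was called in either contrast, members included. With the slide as a block, 30 members were called higher at 5 mg Cd/kg against control (11.7% of tested probes). In that fit 5 mg array 1, alone on its slide, added nothing to the steps. With array weights, 93 members were called higher at 5 mg (26% of tested probes) and 93 at 16 mg Cd/kg (20.7% of tested probes), each against control. The weights of 5 mg arrays 1, 2 and 3 were 0.12, 0.23 and 1.8, so array 3 dominated the weighted 5 mg mean. The median second step of the members was then 0.04. The rule used each of these contrasts, so the counts describe the members and support nothing further.

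The placement of a 5 mg array was also read after leaving that array out of the steps that chose the probes. The left-out array still took part in the requirement of detection on all 9 arrays, and the ends of the interval are the means that chose the probes, so the reading is not fully independent. Probes with a wide interval are favoured by the choice, and the closer comparison is with eligible probes whose interval was also wide. Without 5 mg array 1, 172 probes had both steps above 0.5, and array 1 lay between the control and 16 mg means in 46 of them (26.7%). Of the 75 probes chosen without 5 mg array 2, array 2 lay between the means in 53 (70.7%). Of the 200 chosen without 5 mg array 3, array 3 lay between in 51 (25.5%). The matching shares over all eligible probes were 7.66%, 20.0% and 16.0%. Among the 2295 eligible probes whose 16 mg mean exceeded the control mean by more than 1, whatever their 5 mg level, they were 20.0%, 54.0% and 21.4%.

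Most of the left-out 5 mg arrays that missed the interval lay above it. Array 1 was above the control mean in 94.8% of the probes chosen without it and below the 16 mg mean in 32.0%. For array 3 these shares were 99.5% and 26%, and for array 2 they were 96.0% and 74.7%. Both steps above 0.5 were read from the left-out array in 6 of 172, 12 of 75 and 2 of 200 probes. These are 3.49%, 16.0% and 1.0%, beside 3.01%, 11.0% and 1.0% of the eligible probes with a 16 mg minus control difference above 1. The lists themselves changed with the array: of the 139 probes found with all arrays, 30 were among the 172, 37 among the 75 and 40 among the 200.

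**Figure D4:**
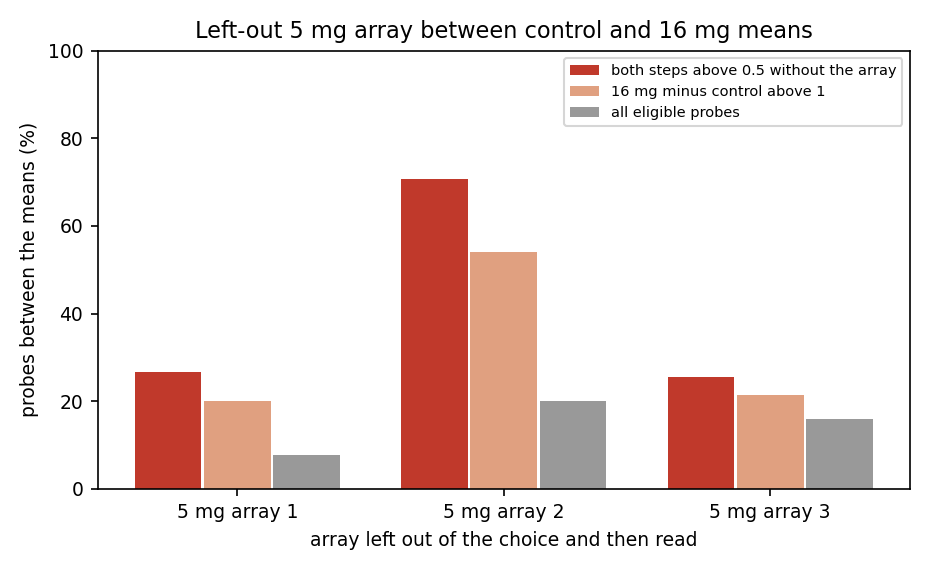
Percentage of probes in which a 5 mg array left out of the steps (but not of the detection requirement) lay between the control and 16 mg means. Bars are for probes chosen by both steps above 0.5 on the other 8 arrays, for eligible probes with a 16 mg minus control difference above 1 and for all eligible probes. Array 2 lay between the means in 70.7% of the probes chosen without it, against 26.7% for array 1 and 25.5% for array 3.

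Leaving out a 16 mg array gave a reading of the second step against the same 5 mg mean that had served in the choice. The left-out array lay above that mean in 71.4% of 161 probes for 16 mg array 1, 79.6% of 103 for array 2 and 42.1% of 342 for array 3. Over all eligible probes the shares were 51.2%, 49.7% and 45.7%. For the control arrays, read against the 5 mg mean, the left-out array was lower in 83.8%, 98.0% and 97.6% of the chosen probes, and in 55.8%, 54.2% and 55.9% of the eligible ones. Among eligible probes with a 16 mg minus control difference above 1 (taken without the left-out array), these shares were 95.8%, 97.6% and 98.0% for the control arrays, and the shares above the 5 mg mean were 33.9%, 68.1% and 19.8% for the 16 mg arrays.

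Slides 1 and 2 each held all 3 groups, so both steps could be taken within a slide. Each held a single 5 mg array, array 2 on slide 1 and array 3 on slide 2, so the steps rest on that pool. On slide 2 the only control array was scanned in another session than the treated arrays. There, treatment and scan session cannot be told apart in the first step and the 16 mg minus control difference. On slide 1 the members had a median first step of 0.53 and a median second step of 1.11, and 59 of 100 had both above 0 (20.8% of the eligible probes). On slide 2 the median first step was 1.62 and the median second step -0.17, and 33 members had both above 0 (16.1% of the eligible probes). The difference between 16 mg Cd/kg and control was above 0 for all 100 members on slide 1 and on slide 2, with medians of 1.56 and 1.40. Of the 16752 eligible probes it was above 0 in 10170 on slide 1 and 9698 on slide 2, with medians of 0.27 and 0.21. With a slide term in the fit to all arrays, where 5 mg array 1 added nothing to the steps, 16 members kept both steps above 0.5. With a scan session term, where only control array 3 counted as a control, 12 did. Both steps were above 0 on both slides in 15 members (5.0% of the eligible probes). They were above 0.5 on both slides in 2 members (4 of the 16752 eligible probes, members included). These arrays chose the members, apart from 5 mg array 1 on slide 3, so the values are not independent of the rule.

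Choosing on 1 slide and reading the other used separate arrays for the steps. Here too the choice favours probes with a wide interval between control and 16 mg. The shares of eligible probes given beside it are not limited to such probes. Slide 1 alone gave 429 eligible probes with both steps above 0.5. On slide 2 these had a median first step of 1.37 and a median second step of -0.27, and 85 of them (19.8%) had both above 0, where 16.1% of the eligible probes did. Slide 2 alone gave 33 probes, which on slide 1 had medians of 0.91 and -0.27, with both steps above 0 in 13 (39.4%, where 20.8% of the eligible probes did). The second step thus had a negative median on the slide that was not used, whichever slide chose, while the difference between 16 mg Cd/kg and control stayed positive, with medians of 1.08 and 0.84.

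**Figure D5:**
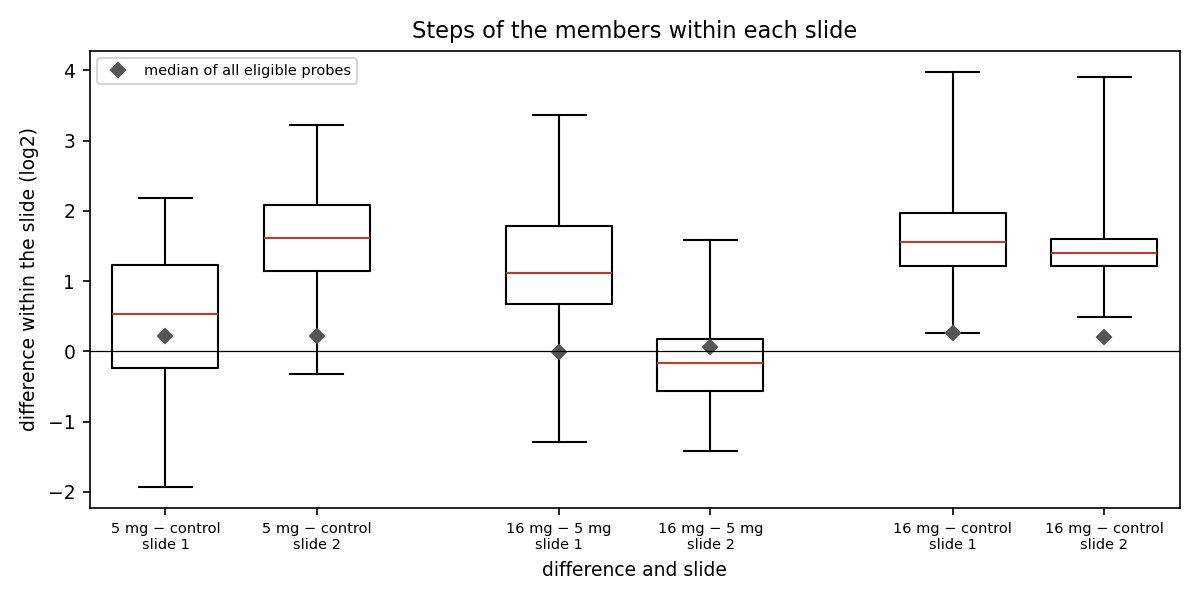
First step, second step and 16 mg minus control difference (log2) of the 100 members within slide 1 and slide 2, as boxes of the quartiles with the median in red and whiskers to the lowest and highest member, beside the median of all eligible probes (diamonds). The 16 mg minus control difference had similar medians on both slides (1.56 and 1.40), whereas the second step had a median of 1.11 on slide 1 and -0.17 on slide 2.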

How the data were processed

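The 9 arrays are 1-colour Agilent arrays of E. crypticus cocoons. The deposited intensity values are the processed signal written by Feature Extraction (Agilent, version 10.7.3.1), background-subtracted, linear and not scaled between arrays, per the file headers. Other deposited columns give spot errors, raw median signal, local background and flags. The authors' value table of the series held the same intensity values, rounded (differences up to 0.497%).

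Levels were log2(processed signal) minus the array's 75th percentile, and 1417 control features were left out. Limma 3.58.1 (lmFit, eBayes, R 4.3.3) fitted 9 arrays in 3 groups, two-sided, with Benjamini-Hochberg adjustment at 0.05 and without 63 spots marked as non-uniform or outlying. The fit pooled the variance of each probe over the 3 groups, also for the SEs given here, although their spread differed. It was tested on simulated data. Replicates are separate pools, and p-values reflect the variation among them. Arrays were not treated as paired by replicate number. Deviations of same-numbered arrays correlated between -0.09 and 0.29, and those of differently numbered arrays between -0.26 and 0.26. With 3 arrays per group these values cannot exclude a batch shared by a replicate number.

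The members, the rule and the tests were chosen with earlier results of these data known. Individually named members had the largest smaller, first, second or total step, or stood at the limit of 100. Others were named after their values were seen. Alternatives covered scaling, filters, weights, blocks, thresholds and each array left out.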

Additional observations from a re-analysis of the deposited data

How the results depend on the processing

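The number of probes with both steps above 0.5 (139), and of the 100 members that kept both, depended on the scaling. Quantile normalization gave 82 probes and kept 60 members, normexp with quantile normalization (on median signals, since mean signals were not used here) gave 12 and kept 10, and the 75th percentile over probes detected on all arrays gave 28 and kept 26. Spike-in scaling gave 168 probes and kept 30 members. Normexp added an offset of 50 to each signal. Both steps stayed above 0 in 99 members with normexp and in all 100 with the other scalings named here. Array weights gave 31 probes and kept 10 members, the slide as a block 88 and 16, the scan session as a block 87 and 12. Both steps stayed above 0 in 59 members with array weights, 71 with the slide block and 54 with the session block. The slide block left 5 mg array 1, alone on its slide, without influence on the steps. Array weights gave the members a median first step of 1.47 and a median second step of 0.04. Medians in place of means gave 169 probes and kept 41 members. A threshold of 0.3 gave 649 probes and a threshold of 1 gave 1. Within slide 1 there were 429 probes and 35 members, and within slide 2 there were 33 probes and 9 members, with a median first step of 1.62 and a median second step of -0.17. The first step of contig00399 with the session block, where only control array 3 counted as a control, was -0.61. Its second step with medians was -1.32. The causes were not tested.

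Calls over all tested probes at 5 mg against control (3756) were 2317 higher and 1439 lower, against 197 and 2344 with spike-ins, and 672 and 3772 with the percentile over detected probes. The median first step of all tested probes was -0.25, -0.62 with spike-ins and -0.67 with that percentile. The 3756 became 2385 with normexp, 0 with no filter on dim probes, 16197 with array weights, 8403 with the slide block, 0 with the session block and 1209 with the 2 groups alone. At 16 mg against 5 mg Cd/kg the 27 calls, all lower, became 10 with quantile normalization, 16 with normexp, 0 with spike-ins, 4 with the percentile over detected probes, 2 with no filter, 94 with only probes detected on all arrays, 83 with array weights, 7 with the slide block, 0 with the session block and 0 with the 2 groups alone. At 16 mg against control the 0 calls became 11098 with array weights, 8 with the slide block and 11035 with the 2 groups alone. Members called higher at 5 mg against control (2) became 1 with quantile normalization, normexp, the percentile over detected probes or the 2 groups alone, 0 with spike-ins, no filter or the session block, 93 with array weights and 30 with the slide block. At 16 mg against control the 0 members became 93 with array weights and 92 with the 2 groups alone. The replicate block, which takes same-numbered arrays together, gave 1899 calls at 5 mg against control and 0 at 16 mg against 5 mg Cd/kg. It left the 139 probes as they were.

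Leaving out each array in turn gave 75 to 342 probes and kept 24 to 98 members. Median steps ran from 0.39 to 1.02 (first), 0.44 to 1.19 (second) and 1.33 to 1.57 (16 mg minus control). The first step of GYUW2K401AGGGW ran from -0.71 to 1.95 and its second from 0.95 to 3.6, while those of contig00399 ran from 0.52 to 1.85 and from -0.79 to 2.16. Calls ran from 0 to 9231 at 5 mg against control, 0 to 30 at 16 mg against 5 mg Cd/kg and 0 to 4565 at 16 mg against control, and members called higher from 0 to 34, 0 to 0 and 0 to 62. Member counts by order ran from 14 to 59 (5 mg above controls), 7 to 36 (16 mg above 5 mg), 84 to 96 (16 mg above controls) and 2 to 7 (full order).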
